A study of Mus musculus with 9 samples.

Results

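Protein-coding Hox genes of the mouse were followed in D2A1-d cells, a murine breast cancer cell line grown in culture. Selection by symbol (Hox, a cluster letter a to d, and a number) took 39 of 55335 gene rows, of which 55154 carried an Ensembl identifier that matched the GENCODE M21 annotation. The 38 genes described comprise 10 of HoxA, 10 of HoxB, 9 of HoxC and 9 of HoxD. The cells had been transduced with shMed4 #4 or shMed4 #1, 2 short hairpin RNAs against Med4, or with a non-targeting control (NTC), and each group had 3 RNA-seq libraries. Med4 is a subunit of the Mediator complex, which links transcription factors to RNA polymerase II. The labels call the libraries biological replicates and do not say whether they came from separate transductions, so the p-values measure only the spread between these libraries.

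Hox genes encode homeodomain transcription factors that give cells along the head-to-tail and limb axes their positional identity. Within a cluster the genes lie in numerical order. Low-numbered genes are in general used earlier and further toward the head, and high-numbered genes later and further toward the tail. Polycomb complexes keep unused Hox genes silent and trithorax (MLL) complexes keep used ones active, and adult cells, tumour lines included, often retain part of the Hox pattern of the tissue they came from. Hox proteins bind DNA together with partners of the TALE homeodomain class, among them the Pbx and Meis proteins. In the mouse mammary gland, Hoxa5, Hoxa9 and Hoxa10 are among the members with described roles.

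The HoxA genes described lie on chromosome 6 (GRCm38, 52162417 to 52260880, Hoxa2 to Hoxa13), all on the minus strand. RefSeq promoter windows of build GRCm38.p6 matched 22 of the 38 genes, 9 of them in HoxA. The windows below are the 250 bases before the transcript start, 5′ to 3′ on the minus strand, with CpG dinucleotides in capitals. They are shown because they stand for 3 situations in these cells: Hoxa5, whose RNA fell, Hoxa10, whose RNA did not pass the test in any comparison, and Hoxa13, which had no read. Hoxa10 has 2 annotated starts. None of the windows shown overlaps an annotated exon.
Hoxa5, chr6:52204588-52204837: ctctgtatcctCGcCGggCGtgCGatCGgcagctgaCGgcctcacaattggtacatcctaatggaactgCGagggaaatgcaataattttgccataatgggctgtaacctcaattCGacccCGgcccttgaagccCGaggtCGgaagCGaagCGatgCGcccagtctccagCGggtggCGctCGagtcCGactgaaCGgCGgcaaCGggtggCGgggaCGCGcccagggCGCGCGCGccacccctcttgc
Hoxa10, upstream start, chr6:52240855-52241104: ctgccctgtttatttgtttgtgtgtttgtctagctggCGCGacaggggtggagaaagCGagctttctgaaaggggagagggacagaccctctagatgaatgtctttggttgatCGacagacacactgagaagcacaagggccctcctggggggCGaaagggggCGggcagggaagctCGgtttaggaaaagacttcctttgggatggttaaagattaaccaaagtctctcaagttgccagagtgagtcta
Hoxa10, downstream start, chr6:52234940-52235189: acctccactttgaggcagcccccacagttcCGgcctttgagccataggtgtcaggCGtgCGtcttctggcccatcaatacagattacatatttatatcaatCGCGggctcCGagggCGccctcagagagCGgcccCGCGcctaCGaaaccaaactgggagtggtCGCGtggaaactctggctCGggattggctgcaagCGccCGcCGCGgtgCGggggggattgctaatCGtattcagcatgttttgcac
Hoxa13, chr6:52260881-52261130: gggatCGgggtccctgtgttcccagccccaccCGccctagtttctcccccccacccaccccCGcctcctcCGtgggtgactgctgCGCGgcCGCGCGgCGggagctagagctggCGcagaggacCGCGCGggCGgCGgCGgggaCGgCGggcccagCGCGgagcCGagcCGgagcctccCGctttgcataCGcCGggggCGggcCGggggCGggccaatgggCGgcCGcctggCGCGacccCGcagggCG
The Hoxa5 window held 28 CpG dinucleotides, the Hoxa10 windows 7 and 20, and the window of the silent Hoxa13 gene 35. All 32851 promoter windows in the table had a median of 6. Across the 8 windows of transcribed HoxA genes the median was 12.5 (range 3 to 28), and across the 16 windows of silent Hox genes it was also 12.5 (range 2 to 35), so CpG number did not separate transcribed from silent members. The Pbx-Hox composite motif TGATTNAT, searched on both strands, was present in 2 of the 24 Hox windows, against 2.82% of all windows. Those were the windows of Hoxa2 and Hoxd11. The Meis and Tgif motif TGACAG, likewise on both strands, was present in the Hoxa2 and Hoxa3 windows and in 15.9% of all windows. The matches to the 2 motifs in the Hoxa2 window did not overlap each other.

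The libraries held 7572114 to 8582235 reads assigned to genes. Med4 had 66, 60 and 50 reads in the shMed4 #4 libraries, 40, 35 and 38 in the shMed4 #1 libraries and 236, 216 and 204 in the NTC libraries, so the groups matched their labels. Its log2 fold change was -1.92 ± 0.13 with shMed4 #4 and -2.59 ± 0.14 with shMed4 #1 (SE; adjusted p = 8.44e-16 and 3.92e-18, edgeR quasi-likelihood test with Benjamini-Hochberg adjustment, the test used throughout). More Med4 RNA remained with shMed4 #4 than with shMed4 #1 (log2 difference 0.67 ± 0.18, adjusted p = 0.00401). Against the tissue label, the epithelial markers Epcam, Cdh1, Krt5, Elf5 and Esr1 each had under 10 reads over the 9 libraries. The keratin genes Krt8 and Krt18 were read in every library, and the summed level of the 10 mammary epithelial markers was 180 to 205 CPM (reads scaled to a library of 1000000 gene reads) with shMed4 #4, 96.2 to 116 CPM with shMed4 #1 and 25.7 to 28.8 CPM in NTC. Because the libraries are bulk RNA, fewer cells of a type and less RNA per cell cannot be told apart.

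The D2A1-d cells transcribed 1 of the 4 Hox clusters. The HoxA genes described summed to 91.6 ± 3.68 CPM with shMed4 #4, 120 ± 6.26 CPM with shMed4 #1 and 153 ± 3.94 CPM in NTC (SD, n = 3 each). In reads, they had 742, 771 and 723 with shMed4 #4, 1002, 1007 and 973 with shMed4 #1, and 1255, 1152 and 1263 in NTC, so the 3 groups did not overlap. The 28 genes of HoxB, HoxC and HoxD had 9 reads together over the 9 libraries, with 5 of them in shMed4 #4, 3 in shMed4 #1 and 1 in NTC. No single gene of these clusters had more than 2. Hoxb4, with 2 reads, was the member with the NTC read, and 21 of the 28 had no read at all.

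Within HoxA, transcription ran up to Hoxa10 and stopped there. Hoxa11 and Hoxa13, the 2 highest-numbered genes of the cluster, which pattern the distal limb and the genital and urinary tracts, had 0 reads in all 9 libraries. A count of 0 in the 3 libraries of a group allows up to 3 reads, or 0.123 CPM with shMed4 #4, 0.12 CPM with shMed4 #1 and 0.125 CPM in NTC, counting error only. In all, 8 of the 38 genes averaged at least 1 CPM in NTC, the same 8 that had enough reads to be tested, and 30 were not tested. Across protein-coding genes of the whole table, 52.6% reached that level in NTC and 31.5% had no NTC read.

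Inside the spans of HoxB, HoxC and HoxD, 26 further annotated genes, most of them noncoding RNAs, shared 35 reads over the 9 libraries. A processed pseudogene in the HoxB span held 34 of those reads, and 24 of the 26 genes had none. Hotair, the noncoding RNA of the HoxC cluster, was among those with none.

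**Figure D1:**
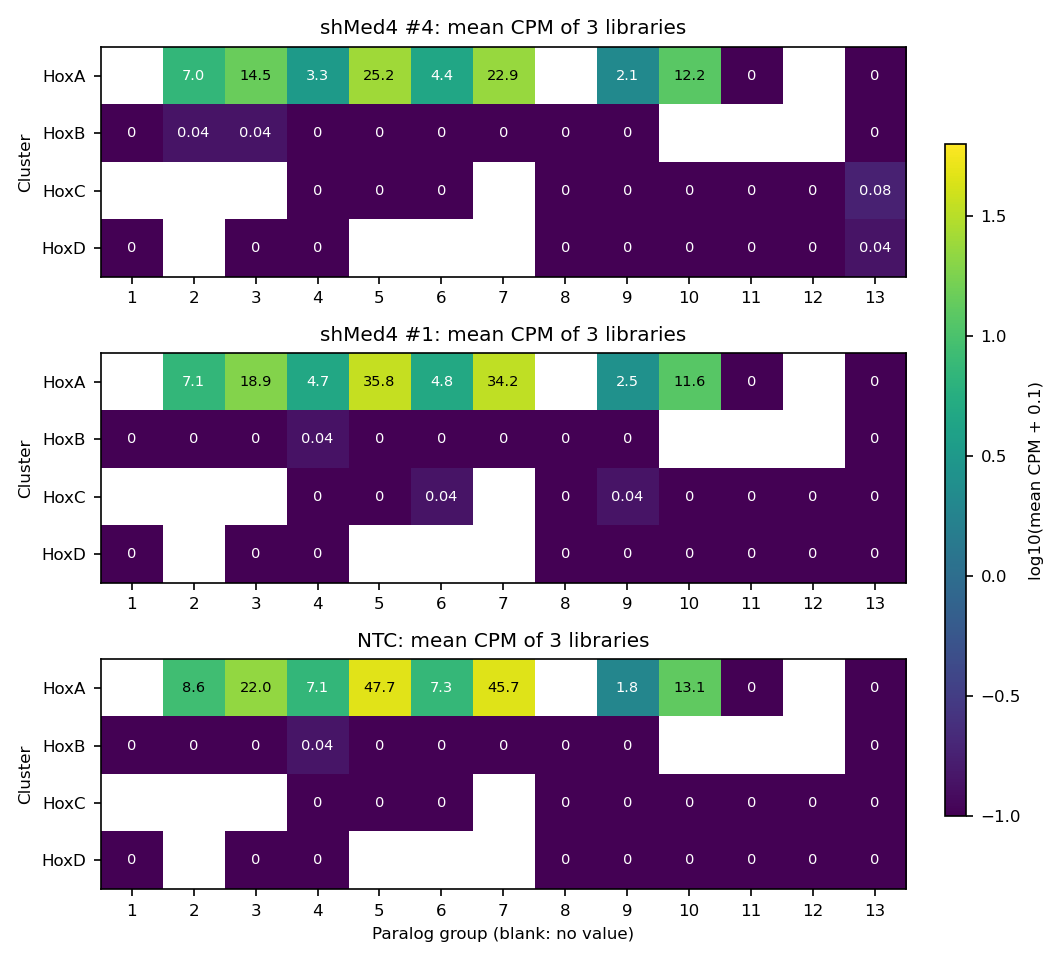
Mean CPM (n = 3 libraries) of each of the 38 Hox genes, with clusters as rows and paralog groups as columns, one panel each for shMed4 #4, shMed4 #1 and NTC; colour is log10(mean CPM + 0.1). The coloured cells are HoxA genes up to paralog group 10, and no HoxB, HoxC or HoxD gene exceeds 2 reads over the 9 libraries.

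The most abundant Hox transcripts per length of exon were Hoxa5 and Hoxa7, central members of the cluster. In NTC, Hoxa5 averaged 25.4 ± 0.852 and Hoxa7 15.9 ± 0.216 RPKM (CPM divided by the kilobases of exon; SD, n = 3). Hoxa6 averaged 8.35 ± 1.73 RPKM. Hoxa2, Hoxa4, Hoxa10 and Hoxa3 lay within a narrow band of 3.98 to 5.73 RPKM. Hoxa9 was lowest of the transcribed genes at 0.334 ± 0.0399 RPKM, below 1 RPKM although above 1 CPM. Among all protein-coding genes, 22.4% had an NTC level in CPM at or above that of Hoxa5.

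With shMed4 #4, 5 neighbouring genes of the cluster fell, from Hoxa3 through Hoxa7. With shMed4 #1, Hoxa4, Hoxa5, Hoxa6 and Hoxa7 fell (adjusted p under 0.05). Of the 8 tested genes described, the counts were thus 0 higher and 5 lower with shMed4 #4, where 27.8% of all 14335 tested genes were called higher and 27.3% lower. For shMed4 #1 they were 0 higher and 4 lower, against 21.8% and 19.8% of all tested genes; DESeq2 and limma-voom also called 0 of the 8 higher with either hairpin, as did edgeR at an unadjusted p under 0.05. In CPM, the shMed4 #4 libraries lay wholly above those of NTC at 0 and wholly below at 5 of the 8 genes, against 29.8% and 29.8% of all tested genes. The shMed4 #1 libraries lay wholly above at 1, Hoxa9, and wholly below at 4, against 25.2% and 23.9%. The median log2 fold change of the 8 genes was -0.66 with shMed4 #4 and -0.35 with shMed4 #1, while the median of all tested genes was -0.01 in both. The 2 comparisons share the NTC libraries, so their values are given side by side and are not independent of each other.

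Hoxa2, a regulator of second-arch and hindbrain identity, had 57, 65 and 48 reads with shMed4 #4, 64, 63 and 49 with shMed4 #1, and 78, 58 and 71 in NTC. The ranges overlapped, and neither change passed, at -0.31 ± 0.17 with shMed4 #4 (adjusted p = 0.118, interval -0.64 to 0.02) and -0.29 ± 0.17 with shMed4 #1 (adjusted p = 0.167, interval -0.62 to 0.04). With shMed4 #4 the surrounding stretch of chromosome 6 lay higher, with a median log2 fold change of 0.24 over the 25 nearest tested genes on each side. With shMed4 #1 that median was 0.07. Relative to those neighbouring genes the Hoxa2 value with shMed4 #4 was -0.55 and passed (adjusted p = 0.00711; range over the 15 alternatives 0.00711 to 0.393).

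Hoxa3, which acts in the thymus, parathyroid and neck skeleton, had 132, 112 and 111 reads with shMed4 #4, 155, 159 and 157 with shMed4 #1, and 181, 155 and 191 in NTC. Each shMed4 #4 library was below all the others. Its log2 fold change was -0.60 ± 0.11 with shMed4 #4 (adjusted p = 1.55e-05). With shMed4 #1 it was -0.22 ± 0.10 and missed the threshold (adjusted p = 0.0857). That value passed with upper-quartile scaling (adjusted p = 0.0484) and relative to the neighbouring genes (0.0361), within a range of 0.0361 to 0.253 over the alternatives.

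Hoxa4 had 28, 28 and 24 reads with shMed4 #4, 37, 43 and 38 with shMed4 #1, and 48, 55 and 67 in NTC. The 3 groups were fully separated, in that order. The gene, a central member of the cluster with roles in the vertebral column, fell by 1.11 ± 0.20 on the log2 scale with shMed4 #4 (adjusted p = 1.35e-05), the largest fall among the Hox genes. Its interval of -1.51 to -0.72 takes in the Hoxa7 value of -0.99, so that rank is not resolved. It fell by 0.59 ± 0.19 with shMed4 #1 (adjusted p = 0.0106). Hoxa4 lies within the bounds of Hoxa3 and of the antisense gene Hoxaas3. The part of any unspliced RNA of those genes in its reads was not tested. Without NTC replicate 3 the shMed4 #1 value missed the threshold (-0.46, adjusted p = 0.0787; the alternatives ran from 0.00602 to 0.0787).

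Hoxa5, which has been described as a tumour suppressor in human breast cancer and acts in lung development in the mouse, carried the most HoxA reads. It had 192, 216 and 208 with shMed4 #4, 284, 326 and 283 with shMed4 #1, and 369, 373 and 399 in NTC. No 2 groups overlapped, and in RPKM the means were 13.4 with shMed4 #4, 19.1 with shMed4 #1 and 25.4 in NTC. The log2 fold change was -0.92 ± 0.09 with shMed4 #4 and -0.41 ± 0.08 with shMed4 #1 (adjusted p = 1.14e-11 and 6.37e-05). Hoxa5 shares no exon base with another annotated gene, but it lies within the bounds of Hoxa3 and of the antisense gene Hoxaas3. Any unspliced RNA of those genes could add to its reads, which was not tested.

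Hoxa6 shares no exon base with another gene either, and it also lies within the bounds of Hoxa3 and Hoxaas3. It had 37, 40 and 31 reads with shMed4 #4, 48, 30 and 41 with shMed4 #1, and 59, 68 and 47 in NTC. With shMed4 #4 every library was below every NTC library, whereas shMed4 #1 replicate 1 overlapped the NTC range. The gene fell with shMed4 #4 (-0.72 ± 0.20, adjusted p = 0.00283) and with shMed4 #1 (-0.61 ± 0.20, adjusted p = 0.0125). The shMed4 #1 call was lost without NTC replicate 2 (adjusted p = 0.107) or without shMed4 #1 replicate 2 (0.0955), with a range of 0.00324 to 0.107 over the alternatives.

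Hoxa7 showed the smallest adjusted p of the Hox genes. It had 175, 199 and 186 reads with shMed4 #4, 293, 269 and 292 with shMed4 #1, and 373, 351 and 369 in NTC. As for Hoxa5, the 3 groups were separated without overlap. Its log2 fold change was -0.99 ± 0.08 with shMed4 #4 and -0.42 ± 0.08 with shMed4 #1 (adjusted p = 1.09e-12 and 4.45e-05). Hoxa7, which helps to specify thoracic vertebrae and takes part in haematopoiesis, shares 20.4% of its exon bases with a gene on the other strand.

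**Figure D2:**
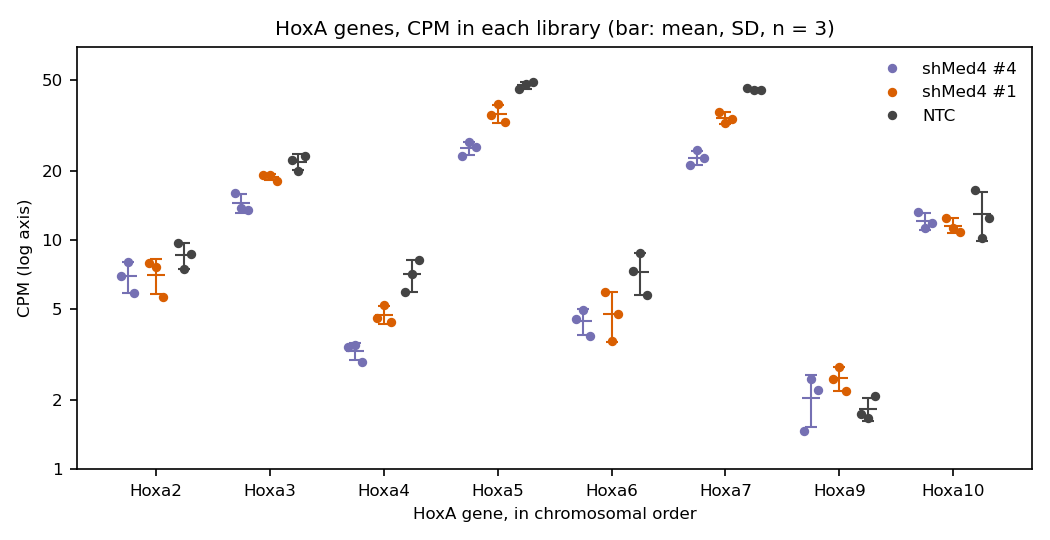
Level in CPM (log axis) of 8 transcribed HoxA genes in chromosomal order; points are libraries and bars the mean and SD of 3 libraries of shMed4 #4, shMed4 #1 and NTC. The groups separate without overlap at Hoxa3, Hoxa4, Hoxa5 and Hoxa7, with shMed4 #4 farthest from NTC, and overlap at Hoxa2 and Hoxa10.

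The 2 transcribed genes beyond Hoxa7 did not pass the test with either hairpin. Hoxa9, which is needed for haematopoietic progenitors and, with Hoxb9 and Hoxd9, for growth of the mammary gland in the mouse, had 12, 20 and 18 reads with shMed4 #4, 20, 23 and 19 with shMed4 #1, and 14, 13 and 17 in NTC. Every shMed4 #1 library was above every NTC library, while the shMed4 #4 libraries overlapped those of both other groups. Its log2 fold change was 0.16 ± 0.31 with shMed4 #4 (interval -0.45 to 0.76) and 0.43 ± 0.29 with shMed4 #1 (interval -0.14 to 1.00), so changes of either direction with shMed4 #4 could not be resolved at this depth. Hoxa10, a regulator of uterine and limb identity, had 109, 91 and 97 reads with shMed4 #4, 101, 94 and 94 with shMed4 #1, and 133, 79 and 102 in NTC. Both knockdown groups lay inside the NTC range, which NTC replicate 1 set at its upper end. The Hoxa10 interval was -0.39 to 0.17 with shMed4 #4 and -0.46 to 0.10 with shMed4 #1 (log2, adjusted p = 0.545 and 0.337). A fall of the size seen at Hoxa7 with shMed4 #4 lies outside the interval of that comparison. With shMed4 #1 the Hoxa7 value of -0.42 lies inside the Hoxa10 interval, so a fall of that size at Hoxa10 could not be resolved.

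The 2 hairpins differed in how far the HoxA genes moved. In shMed4 #4 minus shMed4 #1, tested directly, Hoxa7 differed by -0.58 ± 0.09, Hoxa5 by -0.50 ± 0.09 and Hoxa3 by -0.38 ± 0.11 on the log2 scale (adjusted p = 3e-06, 2.9e-05 and 0.00986). These were 3 lower and 0 higher of 8, where 13.9% of all tested genes were called lower and 14.2% higher, and edgeR at an unadjusted p under 0.05, DESeq2 and limma-voom gave 0 higher too. Without overlap of the libraries, 4 genes were lower and 0 higher with shMed4 #4, against 20.2% and 20% of all tested genes. Hoxa4 differed by -0.53 ± 0.22 and missed the threshold (adjusted p = 0.0662), and Hoxa6 by -0.11 ± 0.22 with an interval of -0.54 to 0.32. At Hoxa3, Hoxa5 and Hoxa7 the lower levels were in the shMed4 #4 libraries, in which more Med4 RNA remained.

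The Hoxa3 difference was lost without shMed4 #4 replicate 3 (adjusted p = 0.0548; the alternatives ran from 0.000207 to 0.0548). The Hoxa4 difference passed relative to the neighbouring genes (adjusted p = 0.0253; range 0.0253 to 0.187).

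The unequal changes along the cluster altered the make-up of these HoxA reads. Hoxa5 and Hoxa7 together supplied 52.6 ± 2.74% of the reads of the 8 genes with shMed4 #4, 58.6 ± 0.875% with shMed4 #1 and 60.9 ± 1.87% in NTC (SD, n = 3). Hoxa10 supplied 13.3 ± 1.45% with shMed4 #4, 9.69 ± 0.374% with shMed4 #1 and 8.51 ± 1.91% in NTC. For both shares the shMed4 #4 libraries lay apart from all others. Expressed as a ratio within each library, there were 1.61, 2.19 and 1.92 Hoxa7 reads per Hoxa10 read with shMed4 #4, 2.9, 2.86 and 3.11 with shMed4 #1, and 2.81, 4.44 and 3.62 in NTC. This ratio does not depend on library size or on the scaling between libraries. Every shMed4 #4 library was below the others, and the shMed4 #1 libraries lay inside the NTC range. The ratio uses the same reads as the fold changes of the 2 genes above, so it restates them and is not separate support. Hoxa3 supplied a like share in each group, at 15.9 ± 1.7% with shMed4 #4, 15.8 ± 0.335% with shMed4 #1 and 14.3 ± 0.839% in NTC.

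**Figure D3:**
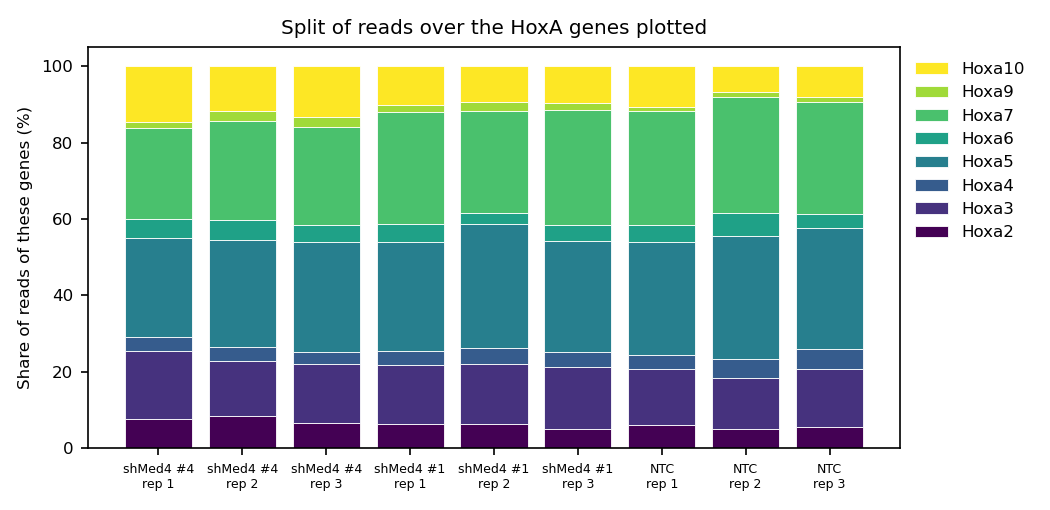
Share (%) of the reads of 8 transcribed HoxA genes taken by each gene, one stacked bar per library, for shMed4 #4, shMed4 #1 and NTC. The Hoxa10 share at the top of the bars is 11.8 to 14.7% in the shMed4 #4 libraries, 9.34 to 10.1% in the shMed4 #1 libraries and 6.86 to 10.6% in the NTC libraries.

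Noncoding and antisense genes of the HoxA span were read as well, and 7 of the 20 other annotated genes there could be tested. The span used here is wider than the coordinates given above for Hoxa2 to Hoxa13. It also takes in Hotairm1 and Gm27861, which lie beside Hoxa2. With shMed4 #4, 5 of the 7 fell and none rose, where 27.3% of all tested genes were called lower. With shMed4 #1, 2 fell and none rose, a share near the 19.8% of all tested genes. Neither DESeq2, limma-voom nor an unadjusted edgeR p under 0.05 gave a higher one with either hairpin. The highest counts among them belonged to Hoxaas3, an antisense RNA that begins inside the Hoxa3 gene and runs to the Hoxa7 gene. It had 88, 83 and 76 reads with shMed4 #4, 119, 101 and 138 with shMed4 #1, and 187, 204 and 162 in NTC. The 3 groups were separated, as at its neighbours Hoxa5 and Hoxa7, with log2 fold changes of -1.19 ± 0.13 for shMed4 #4 and -0.69 ± 0.12 for shMed4 #1 (adjusted p = 3.54e-10 and 1e-05).

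The counting assigned reads by strand while the libraries gave reads of both strands. In 100 pairs, the exons of 1 gene lay entirely within those of an oppositely oriented coding gene. The inner gene had a median of 1.42 times the read density of that coding gene (quartiles 0.39 and 2.13). The 439 genes wholly covered on the opposite strand held 145992 reads over the 9 libraries, whereas the 712 wholly covered on the same strand held 92. Reads from overlapping exons on opposite strands can therefore not be told apart. The overlap covers 34.3% of Gm29430, 30.7% of Hoxaas3, 25.4% of Hoxa3, 20.4% of Hoxa7 and 19.3% of Hotairm1 exon bases. For Hoxa4 it covers 16%, for Hoxaas2 15% and for 5730596B20Rik 8.71%. The part of the overlap in the values of these genes was not tested.

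Among the other antisense genes, Gm15050, which shares no exon base with another gene, had 22, 28 and 26 reads with shMed4 #4, 47, 39 and 65 with shMed4 #1, and 46, 58 and 37 in NTC. It fell with shMed4 #4 (-0.92 ± 0.23, adjusted p = 9.32e-04), and the shMed4 #1 reads overlapped the NTC range (0.04 ± 0.20, adjusted p = 0.907). 5730596B20Rik, annotated as protein-coding, fell with both hairpins, at -1.65 ± 0.25 with shMed4 #4 and -0.64 ± 0.21 with shMed4 #1 (adjusted p = 4.88e-07 and 0.0137). Its shMed4 #1 call was lost with the DESeq2 test (adjusted p = 0.0608) and without NTC replicate 1, NTC replicate 3 or shMed4 #1 replicate 3 (0.0628, 0.0527 and 0.0757; lowest over the alternatives 0.00582). Gm29430 fell with shMed4 #4 (-1.13 ± 0.26, adjusted p = 3.4e-04) and was at -0.47 ± 0.23 with shMed4 #1 (adjusted p = 0.108). The midpoints of these 3 genes lie between 8.64 and 21.7 kb from the Hoxa2 start, inside the long Hoxa3 gene. The part of any unspliced Hoxa3 RNA in their reads was not tested.

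Other noncoding genes lie beside Hoxa2. Hotairm1, a noncoding RNA on the plus strand that is known in human myeloid cells, had 63, 82 and 66 reads with shMed4 #4, 85, 63 and 81 with shMed4 #1, and 71, 69 and 76 in NTC. The groups overlapped (log2 fold change -0.06 ± 0.16 with shMed4 #4 and 0.02 ± 0.15 with shMed4 #1, adjusted p = 0.761 and 0.919). Hoxaas2, between Hoxa2 and Hoxa3, was at -0.39 ± 0.16 with shMed4 #4, narrowly past the threshold (adjusted p = 0.0397). That call was lost with the DESeq2 test and limma-voom and without NTC replicate 1, NTC replicate 2 or shMed4 #4 replicate 2 (adjusted p = 0.0897, 0.052, 0.218, 0.132 and 0.254; lowest over the alternatives 0.00155). The remaining tested gene, Gm27861, an annotated fragment within the bounds of Hotairm1 with 3 to 14 reads per library, was at -1.06 ± 0.47 with shMed4 #4 and 0.33 ± 0.37 with shMed4 #1 (adjusted p = 0.0529 and 0.514). The shMed4 #4 value passed under 4 of the 14 alternatives that gave an adjusted p for it (lowest adjusted p = 0.0181, highest 0.185). In shMed4 #4 minus shMed4 #1 the gene differed by -1.39 ± 0.44 (adjusted p = 0.0159). That call was lost with the DESeq2 test and without shMed4 #1 replicate 1 or shMed4 #4 replicate 2 or 3 (adjusted p = 0.0705, 0.0571, 0.0617 and 0.0828; lowest over the alternatives 0.00601).

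**Figure D4:**
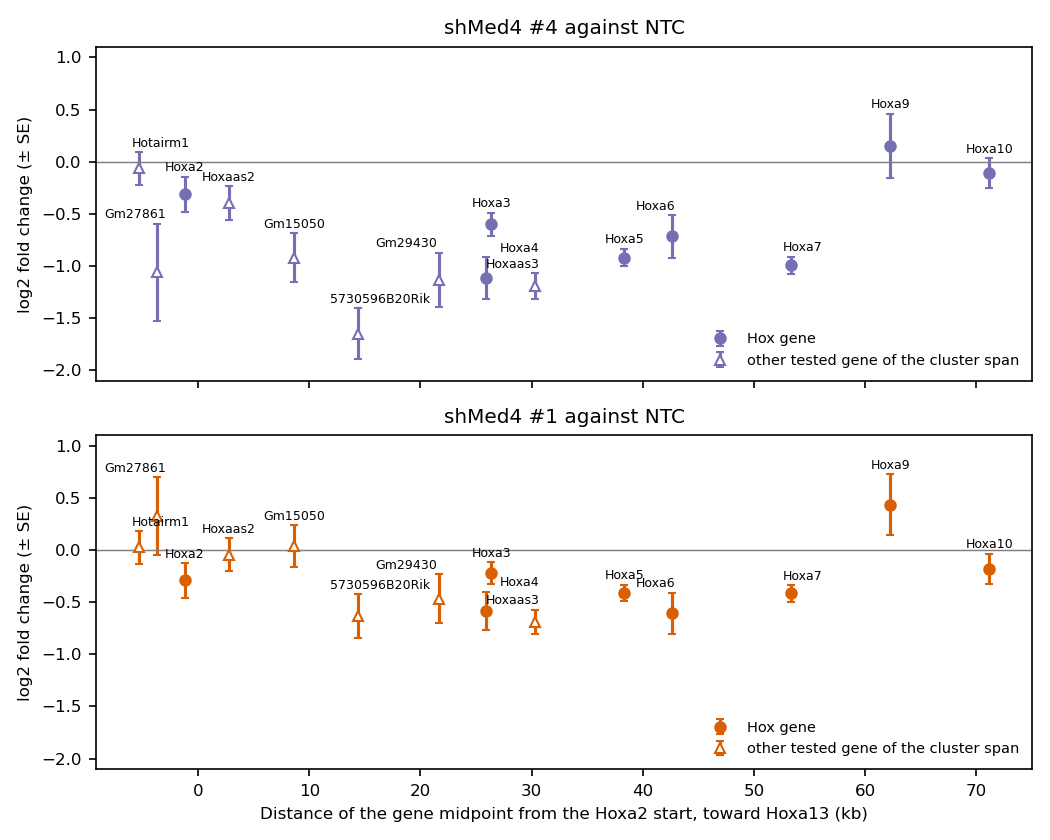
Log2 fold change (± SE) against NTC of each tested gene of the HoxA span, for shMed4 #4 (top) and shMed4 #1 (bottom), by the distance of the gene's midpoint from the Hoxa2 start in kb; filled circles are Hox genes and open triangles other genes. With shMed4 #4, values are below -0.5 at every gene between 8.64 and 53.3 kb, from Gm15050 to Hoxa7, and nearer 0 at Hoxa9 and Hoxa10; Gm27861, at -1.06 with an SE of 0.47, lies apart.

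Most tested genes near but outside the cluster moved the other way. Within 1 Mb of HoxA, 8 other tested genes lay outside the span of the cluster, and 6 of them rose with shMed4 #4 and 6 with shMed4 #1 (27.8% and 21.8% of all tested genes), with none lower by edgeR, by DESeq2, by limma-voom or at an unadjusted edgeR p under 0.05. Their median log2 fold change was 0.38 with shMed4 #4 (range -0.07 to 4.06) and 0.23 with shMed4 #1 (range -0.14 to 3.14). Halr1, described below, is among those that rose. Its NTC libraries had 2, 1 and 2 reads, under the minimum count of 10. It could therefore enter the test only by being higher in the knockdown libraries. With shMed4 #4 the median of the 25 nearest tested genes on each side was itself 0.17 to 0.31 at these genes. The nearest tested protein-coding genes were Skap2, a signalling adaptor, and Hibadh, a mitochondrial enzyme of valine breakdown. Hibadh rose by 0.51 ± 0.06 with shMed4 #4 and 0.32 ± 0.06 with shMed4 #1 (adjusted p = 1.27e-08 and 8.77e-05). Skap2 rose by 0.22 ± 0.07 and 0.21 ± 0.07 in the same order (adjusted p = 0.00936 and 0.019), and its shMed4 #4 value relative to its own neighbours was -0.06 (adjusted p = 0.487; range over the alternatives 0.00119 to 0.487). The Skap2 call with shMed4 #4 was also lost without NTC replicate 2 (0.16, adjusted p = 0.0888). With shMed4 #1 it was lost with the DESeq2 test, relative to the neighbours, and without NTC replicate 1, NTC replicate 2 or shMed4 #1 replicate 3 (adjusted p = 0.0551, 0.168, 0.0669, 0.149 and 0.0573; lowest over the alternatives 0.00297).

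The largest change near the cluster was at Halr1, a noncoding RNA gene centred 56.5 kb beyond the Hoxa2 start and known in the mouse from the retinoic acid response of embryonic stem cells. It had 38, 32 and 21 reads with shMed4 #4, 17, 19 and 13 with shMed4 #1, and 2, 1 and 2 in NTC. All shMed4 #4 libraries were above all shMed4 #1 libraries, and NTC was close to 0. The log2 fold change was 4.06 ± 0.45 with shMed4 #4 and 3.14 ± 0.52 with shMed4 #1 (adjusted p = 1.04e-09 and 6.33e-06), and its size rests on 5 NTC reads. The step between the hairpins (0.92 ± 0.27, adjusted p = 0.0104) missed the threshold with the DESeq2 test (0.071) and without shMed4 #1 replicate 3 (0.0754) or shMed4 #4 replicate 1 (0.0852; lowest over the alternatives 0.0033).

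Partners of Hox proteins were transcribed, and Meis2 changed most. Of 10 TALE genes, 8 were tested. With shMed4 #4, 2 were higher and 3 lower, and with shMed4 #1, 1 was higher and 2 lower, where 27.8% and 27.3% of all tested genes were called with shMed4 #4 and 21.8% and 19.8% with shMed4 #1. The median log2 fold change was -0.11 with shMed4 #4 and -0.13 with shMed4 #1. Meis2, which binds DNA beside Hox and Pbx proteins, had 80, 60 and 64 reads with shMed4 #4, 43, 33 and 41 with shMed4 #1, and 3, 6 and 5 in NTC. No groups overlapped, and the log2 fold change was 3.80 ± 0.29 with shMed4 #4 and 2.97 ± 0.33 with shMed4 #1 (adjusted p = 6.73e-14 and 2.02e-09). Every NTC library was under the minimum count of 10, so Meis2 could enter the test only by being higher in the knockdown libraries. The size of its change rests on 14 NTC reads, and it is among the TALE genes counted as higher. The difference between the hairpins passed as well (0.83 ± 0.18, adjusted p = 6.67e-04). Meis1, its best-studied relative and a cofactor of Hoxa9 in leukaemia, was close to 0, averaging 0.0407 CPM with shMed4 #4 and 0.0789 CPM with shMed4 #1, with no read in NTC.

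Meis3 and Tgif1 fell with both hairpins. Meis3 had 59, 47 and 51 reads with shMed4 #4, 57, 45 and 67 with shMed4 #1, and 106, 93 and 102 in NTC, with neither knockdown group reaching the NTC range. Its log2 fold change was -0.97 ± 0.15 with shMed4 #4 and -0.89 ± 0.15 with shMed4 #1 (adjusted p = 1.45e-06 and 8.17e-06). Tgif1, a repressor of the same protein class, changed by -0.17 ± 0.05 with shMed4 #4 and -0.32 ± 0.05 with shMed4 #1 (adjusted p = 0.0061 and 6.51e-06). Pbx3, of the Pbx cofactors, fell with shMed4 #4 (-0.44 ± 0.11, adjusted p = 0.00118) and was at -0.23 ± 0.11 with shMed4 #1 (adjusted p = 0.0921), a value that passed without NTC replicate 2 or shMed4 #1 replicate 1 (adjusted p = 0.0405 and 0.0359; highest over the alternatives 0.8). Tgif2, named after its values were seen, was the other gene called higher with shMed4 #4 (0.36 ± 0.10, adjusted p = 0.00201), with 0.00 ± 0.10 for shMed4 #1 (adjusted p = 0.994).

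**Figure D5:**
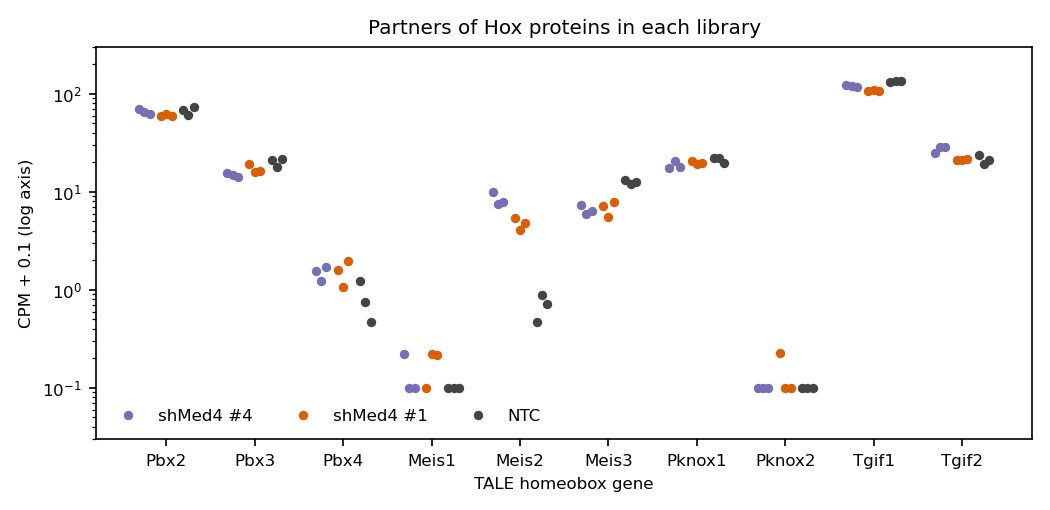
CPM plus 0.1 (log axis) of 10 TALE homeobox genes in each library of shMed4 #4, shMed4 #1 and NTC; each point is 1 library. Meis2 separates the 3 groups widely, Meis3 lies below NTC in both knockdown groups, and Meis1 and Pknox2 sit at or near the floor.

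Complexes that hold Hox genes active or silent had genes called in both directions. All 19 listed trithorax and MLL factors were tested. With shMed4 #4, 8 were higher and 5 lower, and with shMed4 #1, 6 were higher and 9 lower, with medians of -0.03 and -0.13 on the log2 scale. Against these stand 27.8% higher and 27.3% lower of all tested genes with shMed4 #4, and 21.8% and 19.8% with shMed4 #1. Kmt2c, a histone H3 lysine methyltransferase, fell by 0.99 ± 0.09 with shMed4 #4 and 0.44 ± 0.08 with shMed4 #1 (adjusted p = 6.27e-12 and 5.74e-05). Ash1l, another methyltransferase of the group, fell by 0.61 ± 0.07 with shMed4 #4 and 0.19 ± 0.07 with shMed4 #1 (adjusted p = 6.49e-10 and 0.0182). The Ash1l call with shMed4 #1 was lost without NTC replicate 1, NTC replicate 2 or shMed4 #1 replicate 2 (adjusted p = 0.143, 0.0576 and 0.218; lowest over the alternatives 9.93e-04). Mllt3 and Mllt1, subunits of complexes that promote elongation at MLL targets, rose by 0.71 ± 0.05 and 0.66 ± 0.06 with shMed4 #4, and by 0.48 ± 0.06 and 0.33 ± 0.06 with shMed4 #1 (adjusted p = 8.12e-14, 1.74e-11, 6.43e-09 and 6.23e-05).

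Polycomb factors, 29 of 29 tested, gave 8 higher and 9 lower with shMed4 #4 and 6 higher and 7 lower with shMed4 #1, close to the shares of all tested genes (27.8% and 27.3% with shMed4 #4, 21.8% and 19.8% with shMed4 #1). The median of the list was 0.01 with shMed4 #4 and -0.01 with shMed4 #1, close to that of all tested genes. Pcgf5, a subunit of a variant Polycomb repressive complex, fell most, by 1.44 ± 0.09 with shMed4 #4 and 0.81 ± 0.08 with shMed4 #1 (adjusted p = 1.67e-16 and 2.63e-10). Phc3, of the canonical complex, fell by 0.96 ± 0.07 and 0.28 ± 0.06, and Ezh1, a methyltransferase of the other Polycomb complex, by 0.63 ± 0.08 and 0.40 ± 0.07, each given for shMed4 #4 and then shMed4 #1. Relative to its chromosomal neighbours Phc3 was at -0.09 with shMed4 #1 and did not pass (adjusted p = 0.303; lowest over the alternatives 3.88e-05). Phc1, also of the canonical complex, rose by 0.56 ± 0.07 with shMed4 #4 (adjusted p = 2.73e-09) and was at 0.05 ± 0.07 with shMed4 #1 (adjusted p = 0.596).

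Retinoic acid, an inducer of the low-numbered Hox genes in the embryo, acts through a pathway of which 8 of 17 listed genes were tested. With shMed4 #4, 3 were higher and 2 lower, and with shMed4 #1, 2 were higher and 2 lower, against 27.8% and 27.3% of all tested genes with shMed4 #4 and 21.8% and 19.8% with shMed4 #1. Cyp26b1, which degrades retinoic acid, rose by 1.42 ± 0.23 with shMed4 #4 and 1.26 ± 0.24 with shMed4 #1 (adjusted p = 2.46e-06 and 4.43e-05). The receptor gene Rxra fell by 0.60 ± 0.07 with shMed4 #4 and 0.31 ± 0.06 with shMed4 #1. Relative to its chromosomal neighbours the Rxra value with shMed4 #1 was -0.13 and did not pass (adjusted p = 0.135; lowest over the alternatives 5.28e-05). Rdh10, which makes retinal from retinol, was at 0.24 ± 0.06 with shMed4 #4 and 0.12 ± 0.06 with shMed4 #1 (adjusted p = 6.03e-04 and 0.0809), and relative to its neighbours the shMed4 #4 value was -0.07 and did not pass (adjusted p = 0.353; lowest over the alternatives 1.88e-04). Dhrs3, which turns retinal back to retinol, fell with shMed4 #4 (-1.64 ± 0.34, adjusted p = 8.38e-05) and was at -0.02 ± 0.26 with shMed4 #1 (adjusted p = 0.966). The 8 ParaHox and Evx genes, relatives of the Hox clusters, were near silent: none had enough reads to be tested and 6 had none.

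Other transcription factors of positional identity, such as those of limb and mesenchyme, could be tested for 23 of 55 listed genes. With shMed4 #4, 5 were higher and 11 lower, and with shMed4 #1, 5 were higher and 8 lower. Over all tested genes the shares higher and lower were 27.8% and 27.3% with shMed4 #4 and 21.8% and 19.8% with shMed4 #1. Prrx1, a homeobox gene of limb mesenchyme, had 540, 496 and 596 reads with shMed4 #4, 369, 417 and 428 with shMed4 #1, and 73, 82 and 48 in NTC. It rose by 2.98 ± 0.11 and 2.52 ± 0.12 (adjusted p = 3.84e-23 and 7.4e-20). Lmx1b, which specifies the dorsal limb, moved the other way, with 13, 17 and 10 reads with shMed4 #4, 53, 59 and 49 with shMed4 #1, and 106, 91 and 83 in NTC. It fell by 2.83 ± 0.21 and 0.86 ± 0.16 (adjusted p = 4.91e-14 and 3.55e-05). Foxd1 fell with shMed4 #4 (-1.34 ± 0.14, adjusted p = 1.71e-10) and was at -0.18 ± 0.12 with shMed4 #1 (adjusted p = 0.221). Gli2, a Hedgehog effector, rose by 1.04 ± 0.12 with shMed4 #4 and 0.54 ± 0.13 with shMed4 #1 (adjusted p = 3.3e-09 and 8.67e-04).

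Markers of other cell types were read beside these results. Summed leukocyte markers, 7 genes, were 4.29 to 5.34 CPM with shMed4 #4, 4.24 to 4.85 CPM with shMed4 #1 and 6.22 to 11.8 CPM in NTC, with Tyrobp, Adgre1, Itgam and Cd3e each under 10 reads over the 9 libraries. Of the 2 tested, 1 was lower with shMed4 #4 and 2 with shMed4 #1, against 27.3% and 19.8% of all tested genes. Their median log2 fold change was -1.08 and -1.13 in the same order. Endothelial markers, 5 genes, summed to 2.07 to 3.1 CPM with shMed4 #4, 2.73 to 3.93 CPM with shMed4 #1 and 1.29 to 1.87 CPM in NTC, and adipocyte markers stayed under 1 CPM in every library. At this low level the 1 endothelial marker tested was called higher with both hairpins, by 1.415 with shMed4 #4 and 1.554 with shMed4 #1 (log2). Over all tested genes 27.8% and 21.8% were called higher. Stromal fibroblast markers, 7 genes, summed to 120 to 137 CPM with shMed4 #4, 127 to 146 CPM with shMed4 #1 and 142 to 153 CPM in NTC. Of the 4 tested, 2 were higher and 1 lower with shMed4 #4 (median log2 fold change 0.65). With shMed4 #1, 3 were higher and 1 lower (median 1.32). The shares of all tested genes were 27.8% and 27.3% with shMed4 #4 and 21.8% and 19.8% with shMed4 #1. Within that list Pdgfra fell by 1.09 ± 0.07 with shMed4 #4 and 0.73 ± 0.06 with shMed4 #1, while Col1a1 rose by 1.73 ± 0.09 and 1.59 ± 0.09 in the same order. Krt8 rose by 3.77 ± 0.12 with shMed4 #4 and 2.28 ± 0.14 with shMed4 #1, and Krt18 by 2.70 ± 0.08 and 1.98 ± 0.09. The part of these shifts in the Hox values was not tested.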

How the data were processed

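Poly-A or other selection of the RNA is not given in the sources used here; libraries were made from total RNA and sequenced on a BGISEQ-500, per the labels. Reads were aligned with STAR and counted with HTSeq against mm10 (GRCm38), per the submitters' processing notes, with versions and strand setting not given. The authors deposited raw read counts for each gene, without normalization, in 9 libraries; 49.5 to 51.6% of the reads in each table fell in no gene and were left out. Genes were matched to GENCODE M21. Counts were fitted with edgeR 4.0.16 (R 4.3.3; TMM factors, filterByExpr with a minimum count of 10, quasi-likelihood test, 3 groups in 1 fit, two-sided), with adjustment by Benjamini-Hochberg over 14335 genes and a threshold of 0.05; SE is the log2 fold change over the square root of F, and 95% intervals are 1.96 SE either side. CPM uses TMM-scaled library sizes; RPKM divides by exon bases not shared with a gene on the same strand. The floor of 3 reads covers counting error only. Alternatives were DESeq2 1.42.0, limma-voom 3.58.1, DESeq2 size factors, upper-quartile scaling, other filters, pairwise fits, a replicate block, removal of the median shift of 25 genes on each side, and leaving out each library. Fits were tested on simulated data. One Hox gene of the 39 and 3 genes of other lists are not reported here. The Hox genes and the other lists were chosen with earlier results of these data known; genes of the other lists named here are up to 4 per list with the smallest adjusted p, tested cluster genes, flanking genes and markers. Libraries of the same group differed by more than counting noise (their chi-square ran from 1.53 to 2.95 times its degrees of freedom), so each was kept as a replicate.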

Additional observations from a re-analysis of the deposited data

Results flagged for a closer look

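A difference between the 2 hairpins, tested as shMed4 #4 minus shMed4 #1, set apart 3 Hox genes. On the log2 scale these were Hoxa7 at -0.58, Hoxa5 at -0.50 and Hoxa3 at -0.38 (edgeR quasi-likelihood test with Benjamini-Hochberg adjustment, adjusted p = 3e-06, 2.9e-05 and 0.00986). Every shMed4 #4 library lay below every shMed4 #1 library at these 3 genes. Med4 itself differed by 0.67 between the same groups (adjusted p = 0.00401), with more Med4 RNA in shMed4 #4.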

How the results depend on the processing

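Over the 8 tested Hox genes, 3 comparisons and 15 alternatives each, 344 of 360 values kept their direction and their side of the threshold, 4 lost a call, 4 gained one and 8 changed sign. Every sign change of a Hox gene was at a value that did not pass. Leaving out single libraries gave -0.33 to 0.0245 for Hoxa10 with shMed4 #1 and -0.25 to 0.096 with shMed4 #4, and in shMed4 #4 minus shMed4 #1 -0.16 to 0.0937 for Hoxa2 and -0.27 to 0.0809 for Hoxa6. Among noncoding genes the ranges were -0.16 to 0.24 for Gm15050, -0.21 to 0.073 for Hoxaas2 and -0.082 to 0.14 for Hotairm1 with shMed4 #1, and -0.19 to 0.0254 for Hotairm1 with shMed4 #4. With shMed4 #1 they were -0.000387 to 0.11 for Phc1, -0.0699 to 0.0827 for Tgif2 and -0.17 to 0.11 for Dhrs3. With the local chromosomal shift removed, Hoxa9 with shMed4 #4 was -0.0142, Hoxa10 in shMed4 #4 minus shMed4 #1 -0.0446, Gm15050 with shMed4 #1 -0.0195, Hotairm1 with shMed4 #1 -0.0766, Skap2 with shMed4 #4 -0.0638, Phc1, Rdh10 and Dhrs3 with shMed4 #1 -0.0656, -0.0965 and 0.0887, and Rdh10 with shMed4 #4 -0.0662. Hotairm1 with shMed4 #1 was -0.0061 with upper-quartile factors, and Tgif2 -0.0292. Among counts in the other lists against NTC, 1 TALE gene higher with shMed4 #1 became 2 with limma-voom or the local shift removed, 9 trithorax and MLL genes lower with shMed4 #1 became 5 with the local shift removed, and 5 lower with shMed4 #4 became 8 with upper-quartile factors. Of the retinoic acid genes, 3 higher with shMed4 #4 became 1 with the local shift removed, and 2 lower with shMed4 #1 became 1 with DESeq2, no filter or the local shift removed; 5 other positional factors higher with shMed4 #4 became 3 with upper-quartile factors, and 2 Hox cluster noncoding RNAs lower with shMed4 #4 became 1 with DESeq2 or limma-voom. Leaving out 1 library moved TALE genes higher with shMed4 #1 to 2 (NTC replicate 1 or shMed4 #1 replicate 2) and lower to 4 (NTC replicate 2), retinoic acid genes higher with shMed4 #4 to 5 (NTC replicate 3 or shMed4 #4 replicate 1) and lower with shMed4 #1 to 1 (NTC replicate 2 or 3, shMed4 #1 replicate 1 or 2), positional factors higher from 5 to 3 with shMed4 #1 (NTC replicate 3) and with shMed4 #4 (shMed4 #4 replicate 3), and noncoding RNAs lower with shMed4 #4 to 1 (NTC replicate 1 or 2, shMed4 #4 replicate 2). The cause was not tested. The number of Hox genes expressed in NTC was 8, and 7 with a minimum of 2 CPM or 1 RPKM. Libraries with the same replicate number showed no shared deviation (correlations of deviations from the group means -0.0586 to 0.0352). This cannot show whether they were prepared together, and the main fit did not pair them. With the replicate block, 0 Hox genes were higher and 5 lower with shMed4 #4, and 0 and 4 with shMed4 #1. In shMed4 #4 minus shMed4 #1 the counts were 0 and 3, and the block changed no other call of a Hox gene. Low counts limit Hoxa9, whose libraries held 12 to 23 reads.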
